A study of Mus musculus with 12 samples.

Results

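The genes described here encode heat shock proteins and chaperonins, measured by RNA-seq in cultured mouse regulatory T cells (Tregs). Members were chosen by symbol, as every row that began with Hspa, Hspb, Dnaja, Dnajb or Dnajc, carried Hspd1, Hspe1, Hsph1 or Hsp90, began with Cct and a number from 2 to 8, or was Tcp1. Symbols marked as pseudogenes were left out. The rule took 85 of 55228 symbols, of which 66 had a mean of at least 1 TPM over the 12 libraries and were tested. TPM, a level divided by transcript length and library total, lets genes be compared with each other. By name, the 85 comprised 45 J-domain genes, 11 Hsp70 genes, 3 Hsp110 genes, 3 Hsp90 genes, 10 genes of the cytosolic chaperonin CCT, 3 of the mitochondrial chaperonin and 8 small heat shock protein genes. Hspbp1, a nucleotide exchange factor of Hsp70, and Hspbap1 shared the prefix alone.

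All 4 groups were Tregs sorted as Foxp3-GFP+ CD25+ cells from the pooled lymph nodes of 16 NOD.Foxp3-GFP mice, activated, transduced on day 2 and sorted again for the Thy1.1 reporter on day 9. The pool had been divided into 3 parts, each sorted on its own machine and activated by itself, so the 3 replicates of a group were not separate animals and p-values measure the spread between these cultures. EV no IL-2 Tregs carried the empty vector and were washed free of IL-2 on day 4, then cultured for 5 more days. EV+IL-2 Tregs had the same vector and stayed in IL-2. In 1G12t and 3A10t Tregs the construct was the orthogonal IL-2 variant 1G12 or 3A10 tethered to the matching orthogonal IL-2 receptor beta chain through a linker peptide taken from CD25, and these cells were washed like those of EV no IL-2. All libraries came from oligo-dT primed, amplified cDNA. Treg markers were present in every group, with mean Foxp3 levels from 408 to 502 TPM.

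Chaperones bind unfolded or newly made proteins and use ATP to help them fold. Hsp70 proteins take hold of short stretches of a client, J-domain proteins bring clients and trigger ATP hydrolysis, and Hsp110 proteins release the nucleotide. Hsp90 acts later, on kinases, receptors and transcription factors, while CCT folds actin and tubulin inside a ring of 8 subunits. Each compartment has its own set. Heat shock factor 1, Hsf1, turns on the heat-inducible genes by binding heat shock elements, and the unfolded protein response turns on those of the endoplasmic reticulum (ER).

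Promoter sequences of 4 members are shown first as examples of these classes: a mitochondrial chaperonin pair, a classical heat-inducible gene, and both main chaperones of the ER lumen. They are RefSeq sequences on GRCm38.p6, the C57BL/6J reference and not the NOD genome of these cells, written 5' to 3' on the strand of the gene and ending at the base before its RefSeq start. Capitals mark a heat shock element in Hspe1 and Hspa1a and an ER stress response element in Hspa5 and Hsp90b1. The Hspe1 stretch fills the 215 bases between its start and that of Hspd1 on the opposite strand.
Hspe1, chr1:55087933-55088147, plus strand: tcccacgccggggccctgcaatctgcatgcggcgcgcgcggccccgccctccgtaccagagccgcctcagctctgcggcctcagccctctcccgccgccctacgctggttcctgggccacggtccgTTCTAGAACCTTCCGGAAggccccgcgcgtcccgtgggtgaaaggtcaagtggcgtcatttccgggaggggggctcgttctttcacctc
Hspa1a, chr17:34972157-34972406, minus strand: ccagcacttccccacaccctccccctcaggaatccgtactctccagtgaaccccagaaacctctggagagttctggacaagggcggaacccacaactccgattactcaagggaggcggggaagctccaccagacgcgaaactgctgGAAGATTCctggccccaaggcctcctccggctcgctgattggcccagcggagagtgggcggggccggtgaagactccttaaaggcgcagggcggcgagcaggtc
Hspa5, chr2:34771840-34772089, plus strand: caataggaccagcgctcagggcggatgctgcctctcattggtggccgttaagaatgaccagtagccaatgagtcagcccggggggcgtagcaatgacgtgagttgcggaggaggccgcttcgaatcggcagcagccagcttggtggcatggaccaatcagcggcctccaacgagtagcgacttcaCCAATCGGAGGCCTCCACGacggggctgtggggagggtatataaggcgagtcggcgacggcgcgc
Hsp90b1, chr10:86705445-86705694, minus strand: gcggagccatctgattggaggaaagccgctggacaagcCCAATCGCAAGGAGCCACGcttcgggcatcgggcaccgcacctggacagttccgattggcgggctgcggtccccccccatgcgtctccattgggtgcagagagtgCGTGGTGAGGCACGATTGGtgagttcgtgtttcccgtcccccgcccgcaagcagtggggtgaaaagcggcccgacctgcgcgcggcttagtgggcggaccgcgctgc

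RefSeq windows of 300 bases, from 250 before to 50 after each start, were found for 69 of the 85 members, and 16 had none. Heat shock elements were searched on both strands as alternating units of GAA and TTC separated by NN. The form with 2 units, GAANNTTC or TTCNNGAA, stood in 22 of the members' 88 windows, from 20 members, and in 15.1% of all 32851 windows. The longer forms contain the shorter one. With 3 units, GAANNTTCNNGAA, it was found in 6 of the 88 windows, from Dnajb6, Hspd1, Hspe1 and Hsph1, and in 0.603% of all windows. With 4 units, it remained in 2 of the 88, in the shared stretch of Hspd1 and Hspe1, and in 0.0244% of all windows. The ER stress response element, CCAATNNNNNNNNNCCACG, was found in 3 of the 88 windows, from Dnajc3, Hsp90b1 and Hspa5, and in 0.119% of all windows. These are matches of letters, and binding was not measured.

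Levels ran from Hspa8, the highest member, to genes that were nearly silent. Of 10 members listed as heat-inducible, Hspa8, Hsp90aa1, Dnaja1, Hspd1, Dnajb1, Hspe1 and Hsph1 had means from 851 down to 40.1 TPM as deposited, while Hspa1a, Hspa1b and Hspb1 lay below 1 TPM. Among the 85 members, 23 had a mean of at least 100 TPM, 32 lay between 10 and 100, 11 between 1 and 10, and 19 fell below 1. Hspa8, the constitutive cytosolic Hsp70 at chr9:40800984-40810087, was the highest member in every library, with 11.1% of the summed member TPM in EV no IL-2 replicate 1 and 13.9% in EV+IL-2 replicate 1. Its levels, in scaled TPM as all levels below, averaged 1005 ± 56.1 TPM in EV+IL-2 and 768 ± 30.7 TPM in EV no IL-2 (SD, n = 3). The constitutive Hsp90 gene Hsp90ab1 followed at 486 to 545 TPM in EV no IL-2, EV+IL-2 and 3A10t and 460 TPM in 1G12t. It was ahead of its inducible partner Hsp90aa1 in every library except 3A10t replicate 2.

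**Figure D1:**
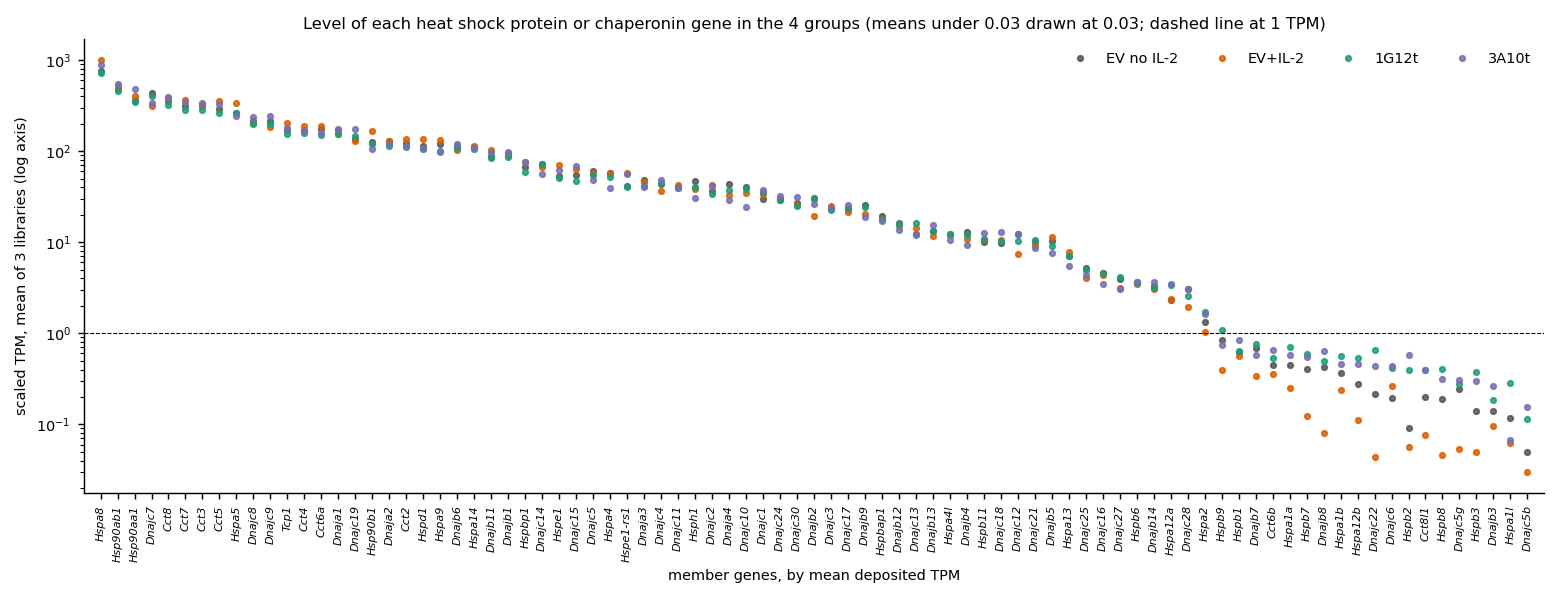
Levels of the 85 members in the 4 groups. The y axis gives the mean scaled TPM of 3 libraries on a log axis, the x axis the genes in order of their mean deposited TPM, and the dashed line the minimum of 1 TPM for testing. Hspa8, Hsp90ab1 and Hsp90aa1 lead, the groups lie close together down to about 1 TPM, and the 19 members on the right sit below it with EV+IL-2 lowest for 18.

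Hspa1a and Hspa1b, the near-identical stress-induced Hsp70 genes whose reads cannot be told apart with certainty, stayed below 1 TPM in all 12 libraries. Hspa1a ran from 0.187 TPM in EV+IL-2 replicate 3 to 0.948 in 1G12t replicate 2. Hspb1, the stress-induced small heat shock protein Hsp27, passed 1 TPM in 3A10t replicate 3 alone, at 1.04. Of the other genes counted as small heat shock proteins by symbol alone, Hspb6 and Hspb11 were tested. Their symbols do not show that they act as such. Hspb8 averaged 0.0466 TPM in EV+IL-2 and 0.403 in 1G12t. Hsf1 itself averaged 129 to 155 TPM and passed the test in none of the 5 comparisons, nor did Hsf2. For 18 of the 19 members below 1 TPM the mean was lowest in EV+IL-2, as it was for 73.3% of the 35176 genes with a mean above 0 and below 1 TPM. The EV+IL-2 libraries listed 30393 to 36239 genes above 0, against 37930 to 43285 in the others, and the part of this difference in the low levels was not tested.

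In the comparison of EV+IL-2 with EV no IL-2, which asks what IL-2 in the medium did, Hspa8 and the 10-kD mitochondrial cochaperonin Hspe1 rose, and 4 J-domain genes fell. Of the 66 members tested, 3 rose and 4 fell, or 4.55% and 6.06%, at an adjusted p under 0.05 (limma, Benjamini-Hochberg over all genes). Over all 15043 genes tested, 8.17% rose and 5.13% fell, so the members' share was below that of all genes for rises and near it for falls. Their median log2 fold change was -0.01, as it was over all genes. The 3 EV+IL-2 libraries all stood above the EV no IL-2 libraries for 16 members and below them for 14, with 19.6% of all genes above and 20.0% below. Without 3A10t replicate 1 the number of members called was 14 and without 3A10t replicate 2 it was 13, while it fell to 2 when EV no IL-2 replicate 3 or EV+IL-2 replicate 1 was left out, to 3 for EV no IL-2 replicate 1 or EV+IL-2 replicate 3, and to 4 for EV+IL-2 replicate 2. The share of all genes called in each of these fits is not given here.

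Hspa8 measured 778, 793 and 734 TPM in EV no IL-2 replicates 1 to 3 and 1066, 996 and 954 TPM in those of EV+IL-2. The groups did not overlap. The log2 fold change was 0.39 ± 0.09 (SE, adjusted p = 0.0147, limma), and the call was lost under quantile normalization (adjusted p = 0.11) and when EV no IL-2 replicate 3 (adjusted p = 0.0635) or EV+IL-2 replicate 1 (adjusted p = 0.0715) was left out. Hspe1 (chr1:55088132-55091307), the lid of the mitochondrial chaperonin, was 54.7, 56.5 and 50.8 TPM in EV no IL-2 and 67.3, 69.4 and 75.1 TPM in EV+IL-2. Every EV+IL-2 library was higher, with a log2 fold change of 0.38 ± 0.11 (adjusted p = 0.0371, limma). The Hspe1 call was lost without any one of these 6 libraries or 3A10t replicate 3, with adjusted p between 0.0515 and 0.133, and with no filter on low TPM (0.0875) or quantile normalization (0.0642). Hspd1, the barrel of that chaperonin, which starts head to head with Hspe1, was 113, 114 and 113 TPM in EV no IL-2 and 145, 145 and 121 TPM in EV+IL-2. Its libraries did not overlap either, yet its log2 fold change of 0.26 ± 0.14 did not pass the test (adjusted p = 0.269, limma).

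Of 38 J-domain genes tested, 0 rose and 4 fell, or 10.5%, where 5.13% of all genes fell. A positive log2 fold change was seen in 23.7% of the 38 and 45.9% of all genes. Dnajb2, a cochaperone that steers clients to degradation, was 28.9, 31.7 and 32.1 TPM in EV no IL-2 and 18.1, 20.7 and 18.9 TPM in EV+IL-2. The fall was clear of the replicate spread, with a log2 fold change of -0.66 ± 0.10 (adjusted p = 0.00143, limma). Dnajc7, which holds clients between Hsp70 and Hsp90 (chr11:100582818-100620168) and had the highest level of the J-domain genes, went from 407, 428 and 464 TPM to 311, 323 and 303 TPM. Its log2 fold change was -0.47 ± 0.08 (adjusted p = 0.00195, limma). Dnajb2 and Dnajc7 passed in all 22 alternative analyses. Dnajc12 fell by 0.68 ± 0.18 on the log2 scale (adjusted p = 0.0343, limma), from a mean of 12.4 to 7.38 TPM, and its call was lost without any of the 6 libraries except EV+IL-2 replicate 2, at an adjusted p of up to 0.126, with no filter on low TPM (0.0897) and with the length correction (0.0835). Dnajc28 fell by 0.46 ± 0.13 (adjusted p = 0.0448, limma), from 3.06 to 1.93 TPM, and missed the threshold when replicate numbers were a block (adjusted p = 0.0616, limma). The Dnajc28 call was lost too without any of the 6 libraries except EV no IL-2 replicate 2, and without 1G12t replicate 1 or 3A10t replicate 3, at an adjusted p of up to 0.15, and with a pseudocount of 5 (0.0582), no filter (0.0654) or quantile normalization (0.0786).

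**Figure D2:**
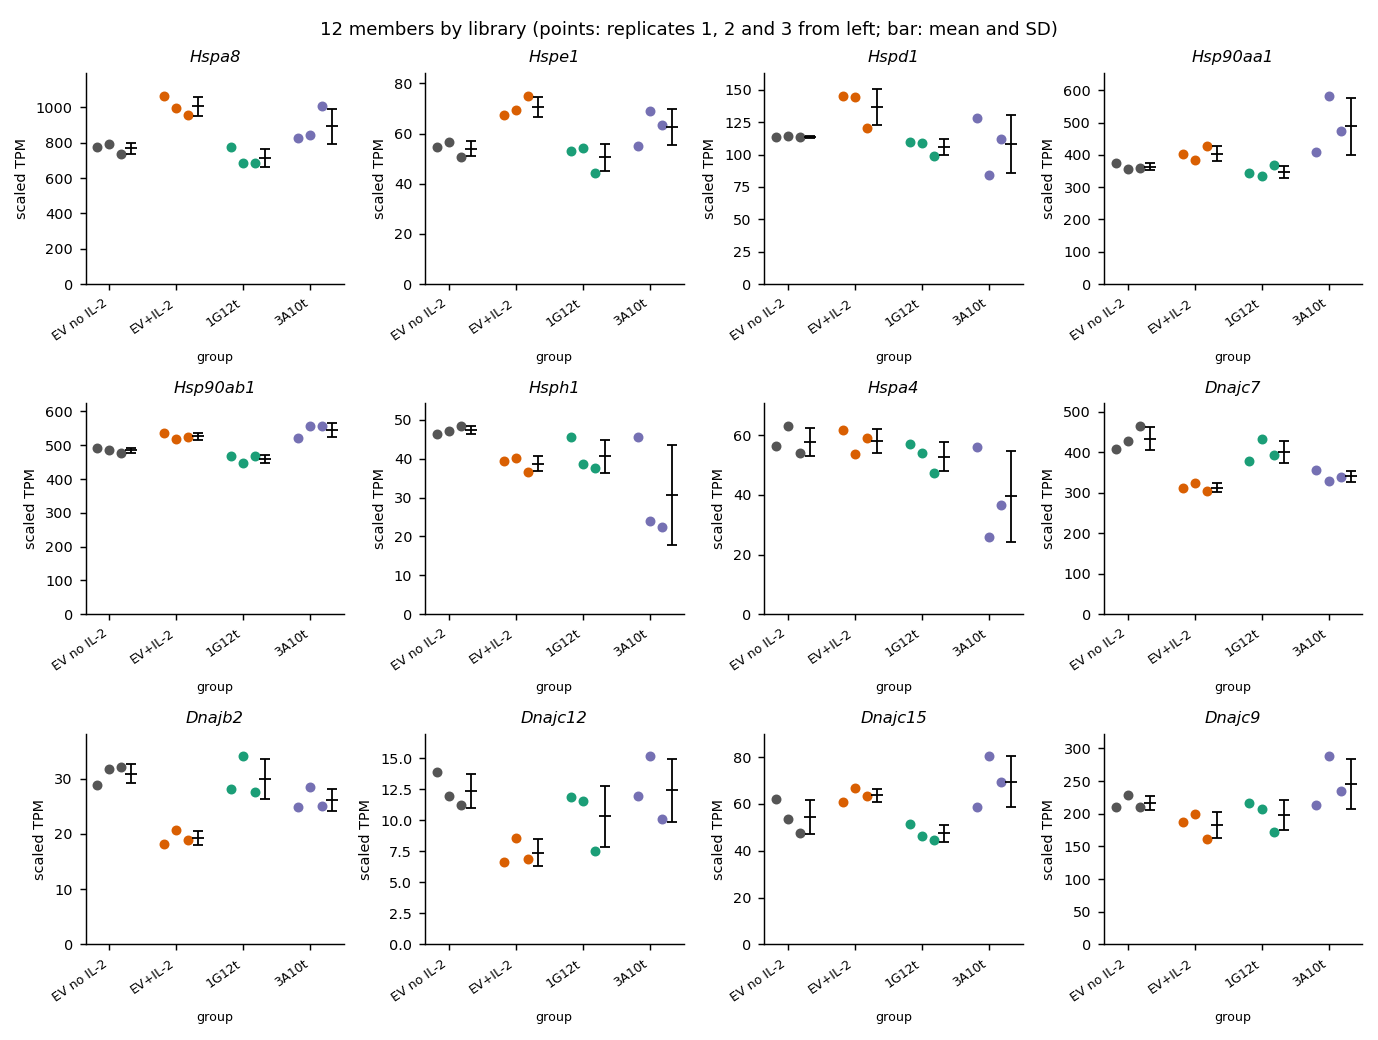
Levels of 12 members by library. Each panel gives scaled TPM from 0 on the y axis and the 4 groups on the x axis, with replicates 1 to 3 as points from left to right and the mean and SD as a bar. Hspa8 and Hspe1 are higher and Dnajc7 and Dnajb2 lower in EV+IL-2 than in EV no IL-2 without overlap, and the 3A10t points of Hsph1 and Hspa4 are spread widely.

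All 8 subunits of the CCT ring had a positive log2 fold change in EV+IL-2, with a median of 0.14 against -0.01 over all genes, and none passed the test. Under quantile normalization 6 of 8 were positive and 1 of them, Cct5, passed. Cct5 came closest, at 307, 297 and 280 TPM in EV no IL-2 and 366, 367 and 345 TPM in EV+IL-2. The groups did not overlap, and the log2 fold change was 0.29 ± 0.09 (adjusted p = 0.0527, limma). It passed in 10 of the 22 alternative analyses, among them TPM as deposited (adjusted p = 0.0231), quantile normalization (0.036) and the length correction (0.0379). Among partners of the ring, 2 of 10 genes for prefoldin and CCT cofactors rose and 0 fell, where 8.17% and 5.13% of all genes did. The 2 were Pfdn1, a prefoldin subunit (log2 fold change 0.44), and Tbca, a tubulin-folding cofactor (0.64). Of 22 cochaperones of Hsp70 and Hsp90, such as Stip1 and Cdc37, 0 rose and 0 fell.

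For the ER members, EV+IL-2 levels were higher for both main chaperones but did not pass the test. Hspa5, the ER Hsp70 BiP (chr2:34771970-34777547), was 256, 273 and 255 TPM in EV no IL-2 and 341, 357 and 308 TPM in EV+IL-2. Without overlap, the log2 fold change was 0.35 ± 0.11 (adjusted p = 0.0664, limma). Hsp90b1, the ER Hsp90 GRP94 (chr10:86690209-86705509), was 121, 127 and 128 TPM in EV no IL-2 and 173, 172 and 161 TPM in EV+IL-2. Its log2 fold change was 0.42 ± 0.14 (adjusted p = 0.0768, limma). Both genes passed when the fit held just these 6 libraries or lacked 3A10t replicate 1 or 2. Of 12 ER members, 0 passed and 6 had a positive log2 fold change.

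In a list of 21 genes of ER folding and the unfolded protein response, 7 rose, or 33.3% against 8.17% of all genes, 0 fell and 14 did not pass. The largest log2 fold change among the examples was that of Xbp1, a transcription factor of that response, at 0.88 ± 0.08 (adjusted p = 4.86e-05, limma). The ER lectin Calr rose by 0.49 ± 0.07 (adjusted p = 0.000962, limma). Sdf2l1, a partner of the ER J-domain protein Dnajb11, rose by 0.79 ± 0.12 (adjusted p = 0.0012, limma), and the disulfide isomerase Pdia3 by 0.35 ± 0.08 (adjusted p = 0.0144, limma). Dnajb11 was 90.7, 91.6 and 83.5 TPM in EV no IL-2 and 104, 108 and 95.2 TPM in EV+IL-2, and Dnajb9, another J-domain partner of BiP, averaged 25.8 and 20.7 TPM. Neither passed the test.

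Other gene groups moved with EV+IL-2. All 10 genes of a proliferation list rose, with a median log2 fold change of 2.41 and a summed level of 637 to 789 TPM against 210 to 236 TPM, and Myc rose by 0.79. Of 6 Treg markers 1 rose, Il2ra, by 0.76, and 0 fell, while 2 rose with the replicate block. Of 8 genes induced by cell handling, 7 were tested and 3 rose (Junb, Ier2 and Dusp1), or 2 with the block. The sum of the 8 ran from 1314 to 1609 TPM with EV+IL-2, 766 to 816 TPM without, 765 to 1770 TPM for 1G12t and 860 to 1157 TPM for 3A10t. Of 5 erythroid markers, Hba-a1 alone was tested and rose, to 18.2 TPM; the summed list was 1.48 to 3.79 TPM in the other groups and 15.7 to 26.0 TPM in EV+IL-2. Summed B cell markers stayed within 8.34 to 16.0 TPM and CD8 T cell markers within 3.45 to 6.51 TPM. The myeloid sum of 441 to 764 TPM was nearly all Cst3, with mean levels of Lyz2, Csf1r, S100a8 and S100a9 below 1 TPM. The part of these groups in the chaperone levels was not tested, and in bulk RNA fewer cells and less RNA per cell cannot be told apart.

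**Figure D3:**
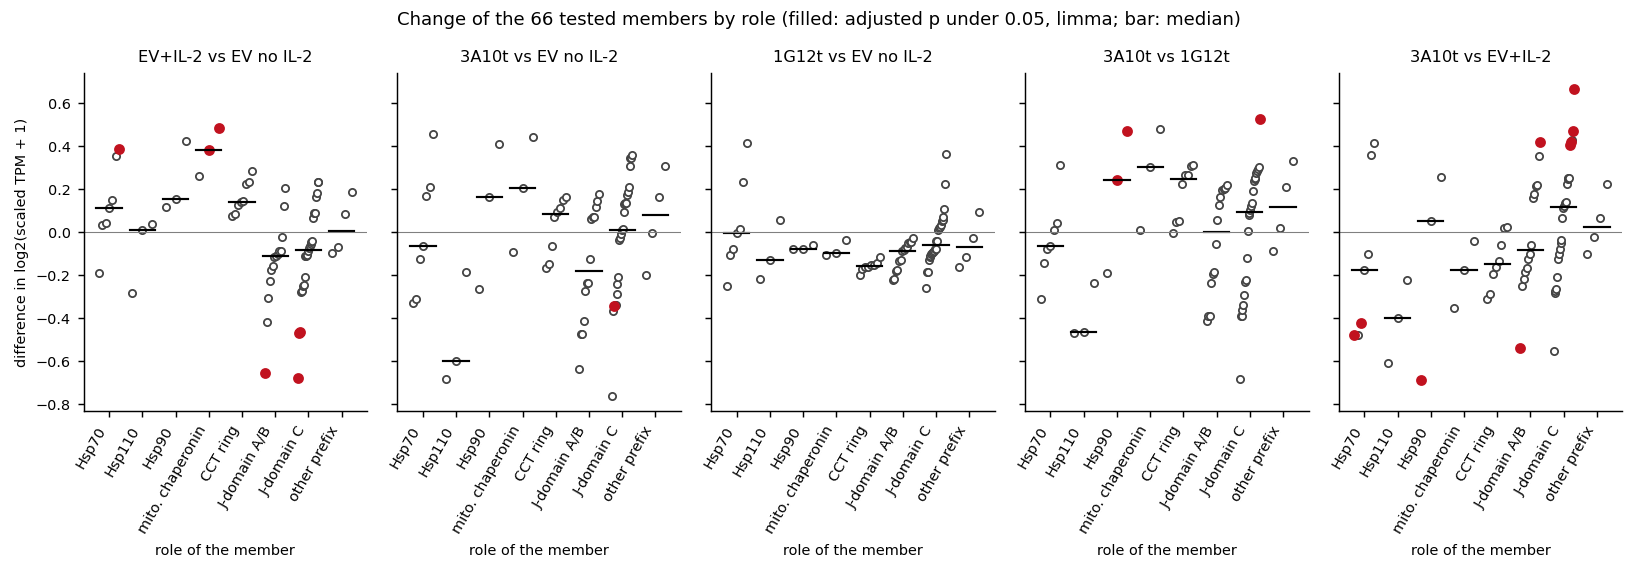
Log2 fold changes of the 66 tested members by role in the 5 comparisons. The y axis is the difference in log2(scaled TPM + 1), the x axis the role, each circle a gene, filled where the adjusted p was under 0.05 (limma), and bars are medians. J-domain genes carry all 4 falls in EV+IL-2, the 1G12t panel has no filled circle, and Hsp110 medians are lowest in 3A10t.

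With 3A10t against EV no IL-2, which asks what the tethered 3A10 did without IL-2 in the medium, Dnajc7 fell and no other member passed. That is 0 of 66 up and 1 of 66 down (1.52%), against 0.452% and 1.60% of all genes. Dnajc7 was 355, 328 and 340 TPM in 3A10t, below all 3 EV no IL-2 libraries. Its log2 fold change was -0.34 ± 0.08 (adjusted p = 0.0447, limma), and under the replicate block its call was lost (adjusted p = 0.0551, limma), as it was with no filter (0.0598), quantile normalization (0.0537) or the 6 libraries alone (0.259). It was also lost without any single library other than 3A10t replicate 1, at an adjusted p of 0.0584 to 0.168. The median log2 fold change of members was 0.00, beside 0.03 over all genes. At a looser threshold, a log2 fold change past 0.25 in size with an unadjusted p below 0.01, 8 members passed, 2 higher and 6 lower, or 12.1% of 66 against 9.50% of all genes. The 3A10t libraries all stood above those of EV no IL-2 for 10 members and below them for 9, with 13.3% of all genes above and 12.1% below.

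The 3A10t libraries differed among themselves far more than those of the other groups. The median SD of the members' log2 values was 0.22 in 3A10t, against 0.10 in 1G12t, 0.09 in EV+IL-2 and 0.08 in EV no IL-2. The same median over all genes was also widest in 3A10t, at 0.22, against 0.11 to 0.15 in the others. In 3A10t replicate 2, 25 of the 66 members lay below the 9 libraries of the other groups and 17 lay above them. These counts were 14 and 15 in replicate 3, and 3 and 5 in replicate 1. They were not made over all genes, whose spread in 3A10t was as wide, and so are not read as particular to the members. The share of TPM taken by the 10 highest genes was 10.8% to 13.5% in 3A10t and 8.85% to 9.92% elsewhere. Leaving out 3A10t replicate 1 raised the number of members called to 20, with 5 up and 15 down. The share of all genes called in that fit is not given here, so the gain is not read as a result about the members.

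Of the 3 Hsp110 genes, Hsph1 and Hspa4 followed this pattern. Hspa4l had a log2 fold change of -0.18 in 3A10t against EV no IL-2, did not pass, and lay below all other groups' libraries in 3A10t replicate 2 alone. Hsph1 was 46.3, 47.2 and 48.4 TPM in EV no IL-2 and 45.5, 24.1 and 22.3 TPM in 3A10t. Hspa4 was 56.3, 63.0 and 53.9 TPM in EV no IL-2 and 56.0, 26.0 and 36.5 TPM in 3A10t. Replicate 1 of 3A10t thus sat beside the EV no IL-2 libraries for both genes, and replicates 2 and 3 were low. The log2 fold changes were -0.68 ± 0.21 for Hsph1 (adjusted p = 0.0985) and -0.60 ± 0.21 for Hspa4 (adjusted p = 0.121, both limma), and neither passed. Without 3A10t replicate 1 they were -0.998 (adjusted p = 0.000182) and -0.88 (adjusted p = 0.00274, both limma). With the length correction they were -0.68 and -0.40. That correction took Hsph1 at 752 bases and Hspa4 at 3075, medians over annotated transcripts that need not match the transcript expressed. Dnajc10, the ER disulfide reductase ERdj5, had the lowest log2 fold change of all members, at -0.76 ± 0.18 (adjusted p = 0.0629, limma), with 38.7, 42.4 and 41.1 TPM in EV no IL-2 and 34.9, 19.6 and 19.2 TPM in 3A10t. All 3 of its 3A10t libraries were lower.

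The cytosolic Hsp90 genes had positive log2 fold changes in 3A10t that did not pass. Hsp90aa1, the inducible Hsp90 (chr12:110690605-110702728), was 375, 355 and 358 TPM in EV no IL-2 and 408, 583 and 472 TPM in 3A10t. The libraries did not overlap, and the log2 fold change was 0.41 ± 0.11 (adjusted p = 0.0775, limma), or 0.26 for TPM as deposited. Hsp90ab1 (chr17:45567775-45573271) was 493, 485 and 478 TPM against 521, 557 and 557 TPM, a log2 fold change of 0.17 ± 0.06 (adjusted p = 0.116, limma), which shrank to 0.017 for TPM as deposited and 0.0017 under quantile normalization. Within a library, where scaling cancels, the ratio of Hsp90aa1 to Hsp90ab1 was 0.893 ± 0.137 in 3A10t, 0.756 ± 0.0284 in 1G12t, 0.768 ± 0.0414 in EV+IL-2 and 0.747 ± 0.0151 in EV no IL-2 (SD, n = 3). The 3A10t libraries stood at 0.783, 1.05 and 0.848, with replicate 1 inside the range of the other groups. Hspa8 and Hspe1, which rose in EV+IL-2, had log2 fold changes of 0.21 ± 0.09 and 0.20 ± 0.11 in 3A10t and did not pass (adjusted p = 0.168 and 0.242, limma). For TPM as deposited these were 0.062 and 0.057, and under quantile normalization that of Hspa8 was 0.05. Of the ER list, Eif2ak3, the ER stress kinase PERK, fell by 1.03 ± 0.14 (adjusted p = 0.0105, limma) and 0 of 21 rose. The CCT ring had a median of 0.08, which turned to -0.07 for TPM as deposited and to -0.04 under quantile normalization.

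With 1G12t against EV no IL-2, the same question for the other tether, 0 of 66 members passed in either direction, where 0.0133% of all genes rose and 0.00665% fell. At an unadjusted p under 0.05, 2 members passed against 7.04% of all genes. They were Hspa2, a low-level Hsp70 known from the testis, and Dnajc13, an endosomal J-domain protein, named here after their values were seen. Hspa2 averaged 1.33 ± 0.258 TPM in EV no IL-2 and 1.73 ± 0.132 TPM in 1G12t. Dnajc13 had a log2 fold change of 0.36 ± 0.16 (adjusted p = 0.703, limma), with 11.0, 13.0 and 13.0 TPM against 14.5, 16.2 and 17.7 TPM. The 1G12t libraries were all higher for this gene.

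A positive log2 fold change in 1G12t was seen for 15 of 66 members, or 22.7% against 48.1% of all genes, and the median was -0.08 against 0.00 over all genes. The classes differed, with 3 of 7 Hsp70 genes and 10 of 24 Dnajc genes positive, and none of the 14 Dnaja and Dnajb genes. Of the 2 tested genes with the symbol of a small heat shock protein, 1 was positive. In 11 members every 1G12t library lay below those of EV no IL-2, and in 2 above, or 16.7% and 3.03%, where 7.80% and 8.68% of all genes did. The 11 held all 4 Dnaja genes, which encode cochaperones of cytosolic and mitochondrial Hsp70. Dnaja1 measured 170, 177 and 161 TPM in EV no IL-2 and 153, 154 and 155 TPM in 1G12t. All 8 CCT subunits had negative values, with a median of -0.16. Cct3 was 322, 327 and 301 TPM in EV no IL-2 and 295, 294 and 256 TPM in 1G12t, without overlap. The members' median ran from -0.10 to -0.04 over the alternatives, and no member passed in any of them.

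**Figure D4:**
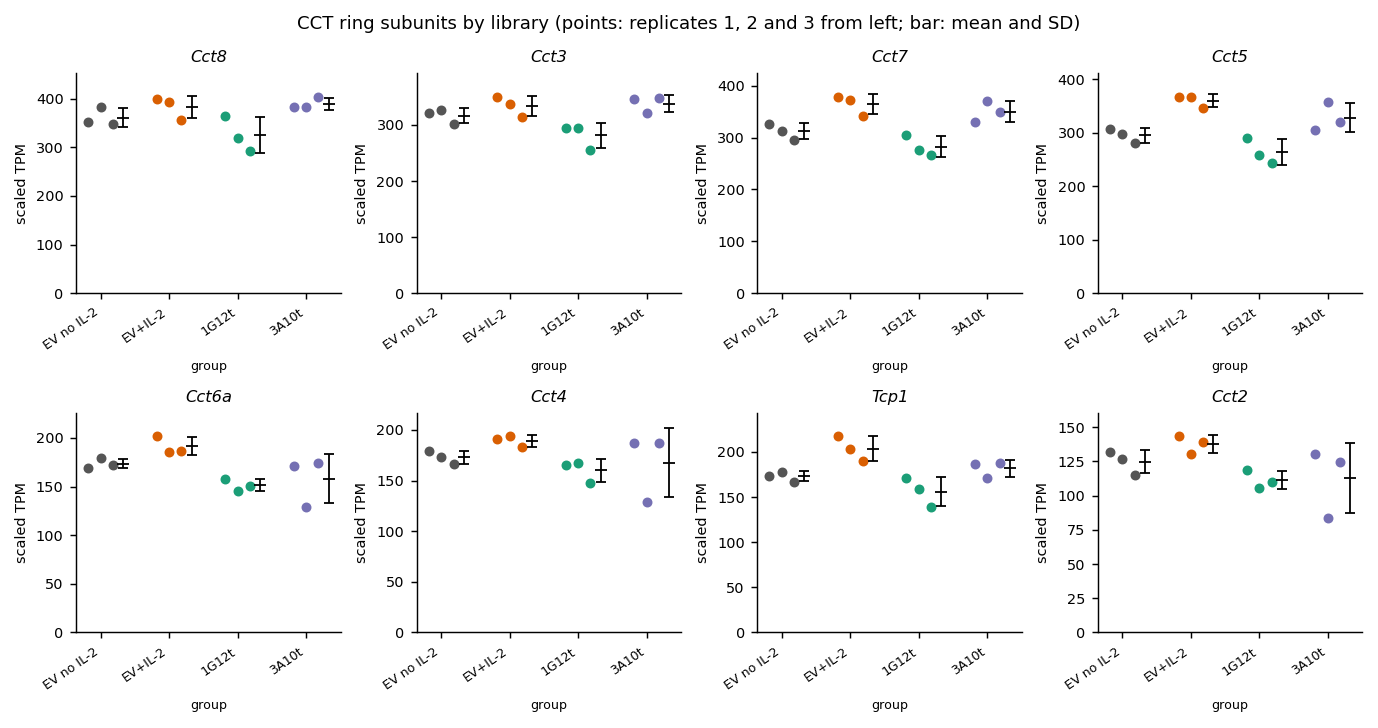
Levels of the 8 CCT ring subunits by library. Each panel gives scaled TPM from 0 on the y axis and the 4 groups on the x axis, with replicates 1 to 3 as points and the mean and SD as a bar. The EV+IL-2 means are above (in log2 fold change, 6 of 8 under quantile normalization) and the 1G12t means below EV no IL-2 for all 8 subunits, and 3A10t replicate 2 is low for Cct2, Cct4 and Cct6a.

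The proteins of the ring assemble in equal numbers, but their mRNAs did not have equal levels. Cct8 was the highest and Cct2 the lowest subunit in all 12 libraries. The ratio of the highest to the lowest was 2.56 to 3.07 in the 9 libraries outside 3A10t, and 2.93, 4.58 and 3.24 in 3A10t replicates 1 to 3. Cct2 was at 83.5 TPM in 3A10t replicate 2, beside 131 and 125 TPM in replicates 1 and 3. Cct3, Cct5 and Cct7 traded places between libraries and cannot be ranked beyond their spread.

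With 3A10t against 1G12t, which compares the tethers, both cytosolic Hsp90 genes and Dnajc15 were higher in 3A10t. In all, 3 of 66 members rose and 0 fell, or 4.55% and 0%, against 1.30% and 2.96% of all genes. With the replicate block 5 rose and 0 fell, with Cct7 (adjusted p = 0.0466, limma) among those added, while 348 of all 15043 genes rose and 639 fell. Hsp90aa1 was 342, 333 and 369 TPM in 1G12t and 408, 583 and 472 TPM in 3A10t. The log2 fold change was 0.47 ± 0.11 (adjusted p = 0.046, limma). Hsp90ab1 was 467, 446 and 468 TPM in 1G12t and 521, 557 and 557 TPM in 3A10t, a log2 fold change of 0.24 ± 0.06 (adjusted p = 0.0444, limma). Dnajc15, an inner mitochondrial membrane protein of the import motor, was 51.6, 46.4 and 44.6 TPM in 1G12t and 58.7, 80.4 and 69.2 TPM in 3A10t, a log2 fold change of 0.53 ± 0.13 (adjusted p = 0.0459, limma). None of the 3 genes overlapped between the groups.

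These calls lay close to the threshold. With TPM as deposited the log2 fold changes were 0.28 for Hsp90aa1 and 0.05 for Hsp90ab1, and both of these calls were lost. Under quantile normalization that of Hsp90ab1 was 0.00985. Each of the 3 calls was lost with no filter on low TPM, quantile normalization, the 6 libraries alone, or the length correction with or without the block. Each was also lost when any single library other than 3A10t replicate 1 was left out, at adjusted p of 0.0578 to 0.13 (limma). Without 3A10t replicate 1, 26 members passed, 12 up and 14 down, and the share of all genes in that fit is not given here. At the looser unadjusted threshold 10 passed, 8 higher and 2 lower, or 15.2% against 12.4% of all genes. In 19 of 66 members all 3A10t libraries were above those of 1G12t and in 6 below, or 28.8% and 9.09%, against 13.7% and 12.5% of all genes. The CCT median was 0.25, and 0.05 with TPM as deposited or quantile normalization. With TPM as deposited, the median of all genes shifted from -0.02 to -0.18 and that of members from 0.05 to -0.12.

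With 3A10t against EV+IL-2, which compares the tether with IL-2 in the medium, Hsp90b1, Hspa5 and Hspa13 of the ER were lower and 5 J-domain genes higher in 3A10t. Of 66 members, 5 rose and 4 fell, or 7.58% and 6.06%, against 10.3% and 13.0% of all genes. Of the 12 ER members 25.0% fell, and of the 38 J-domain genes 13.2% rose, a share near that of all genes. The number called was 2 without EV+IL-2 replicate 1, 26 without 3A10t replicate 1, 4 without EV+IL-2 replicate 3 and 5 without 3A10t replicate 3. Shares of all genes in these fits are not given here. EV+IL-2 libraries served also in the comparison with EV no IL-2, so neither is independent of the other. Hsp90b1 was 173, 172 and 161 TPM in EV+IL-2 and 139, 85.7 and 95.6 TPM in 3A10t. It had the lowest log2 fold change of the members called, at -0.69 ± 0.14 (adjusted p = 0.0066, limma). Hspa5 was 341, 357 and 308 TPM against 268, 198 and 258 TPM, a log2 fold change of -0.48 ± 0.11 (adjusted p = 0.013, limma), and its call was lost without EV+IL-2 replicate 1 (adjusted p = 0.0508) or 2 (adjusted p = 0.0509). Hspa13, a microsomal Hsp70, was 7.04, 7.42 and 8.72 TPM against 5.83, 4.98 and 5.68 TPM, with -0.42 ± 0.10 (adjusted p = 0.0126, limma), and its call was lost with the length correction (log2 fold change -0.29, adjusted p = 0.0514). All 3 genes were lower in every 3A10t library, and the other 9 ER members did not pass. With the 6 libraries alone none of the 3 was called, at adjusted p of 0.0761 for Hsp90b1, 0.0837 for Hspa5 and 0.0791 for Hspa13 (limma). The fourth member that fell was Dnajb5, a cytosolic J-domain gene, by 0.54 ± 0.15 on the log2 scale (adjusted p = 0.0233, limma). Its call was lost without any one of the 6 libraries except 3A10t replicate 1, at an adjusted p of up to 0.0835, and with the 6 libraries alone (0.141).

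Of the ER list of 21 genes, 8 fell, or 38.1% against 13.0% of all genes, 0 rose and 13 did not pass. Eif2ak3 fell by 1.08 ± 0.14 (adjusted p = 0.000444), Xbp1 by 0.69 ± 0.08 (adjusted p = 0.000283), Pdia3 by 0.39 ± 0.08 (adjusted p = 0.00599), and Hyou1, the ER Hsp110, by 0.77 ± 0.17 on the log2 scale (adjusted p = 0.0103, all limma). Hyou1 lies outside the symbol rule. In ratio to Hsp90ab1 of the same library, Hsp90b1 was 0.197 ± 0.0605 in 3A10t, 0.259 ± 0.0121 in 1G12t, 0.321 ± 0.0126 in EV+IL-2 and 0.259 ± 0.0114 in EV no IL-2 (SD, n = 3). The 3A10t libraries stood at 0.266, 0.154 and 0.172, with replicate 1 inside the range of EV no IL-2. Of the 22 cochaperones, 4 fell, or 18.2% against 13.0% of all genes, and 0 rose, against 10.3%. With the replicate block 2 fell and 0 rose, and under quantile normalization 1 fell and 1 rose. Among the 4 was Fkbp5, an Hsp90-bound peptidyl-prolyl isomerase, which fell by 1.26 ± 0.21 on the log2 scale (adjusted p = 0.00203, limma).

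**Figure D5:**
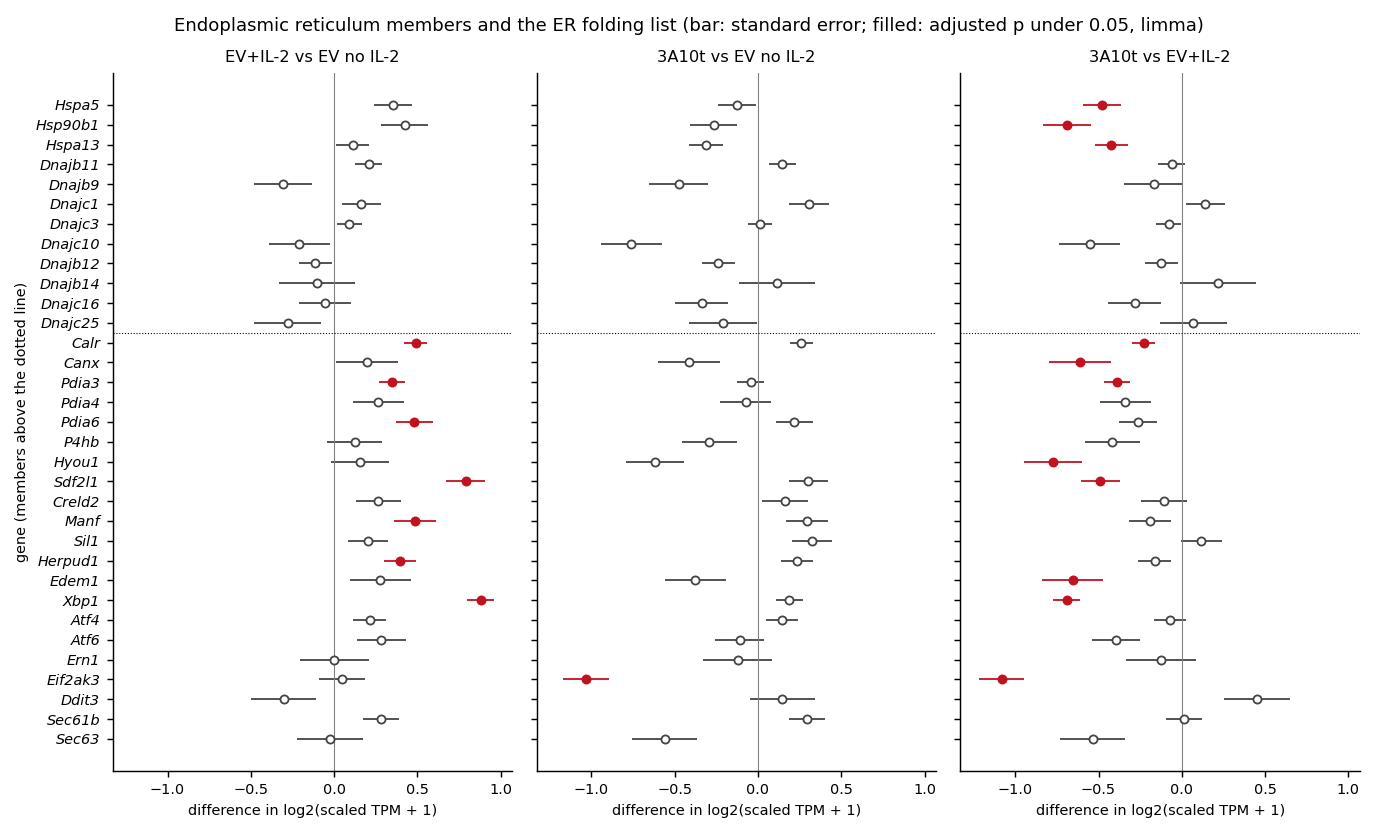
Log2 fold changes of the 12 ER members and the 21 genes of the ER list in 3 comparisons. The x axis is the difference in log2(scaled TPM + 1), the y axis the gene, bars are standard errors, and filled points have an adjusted p under 0.05 (limma). No ER member is filled in EV+IL-2 against EV no IL-2, where 7 list genes are, and Hspa5, Hsp90b1 and Hspa13 are filled below 0 in 3A10t against EV+IL-2.

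The 5 J-domain members that rose were Dnajb2, Dnajc12, Dnajc28, Dnajc4 and Dnajc9. None of the 5 passed in 3A10t against EV no IL-2. Dnajb2, Dnajc12 and Dnajc28 had fallen in EV+IL-2 against EV no IL-2, with log2 fold changes of -0.66, -0.68 and -0.46. Dnajb2 was 24.9, 28.5 and 25.0 TPM in 3A10t, above the EV+IL-2 libraries and below those of EV no IL-2. Its log2 fold change was 0.42 ± 0.10 (adjusted p = 0.0131, limma). Dnajc9, a histone chaperone, was 214, 288 and 236 TPM in 3A10t and 187, 200 and 161 TPM in EV+IL-2, with 0.42 ± 0.13 (adjusted p = 0.0378, limma). The groups did not overlap. Dnajc4, a mitochondrial J-domain protein, rose by 0.41 ± 0.11 (adjusted p = 0.0224), Dnajc12 by 0.67 ± 0.18 (adjusted p = 0.0253) and Dnajc28 by 0.47 ± 0.13 (adjusted p = 0.0288, all limma). Without EV+IL-2 replicate 1 the calls of all 5 were lost, with adjusted p of 0.0583 for Dnajb2, 0.087 for Dnajc9, 0.0823 for Dnajc4, 0.0948 for Dnajc12 and 0.0682 for Dnajc28. Dnajc9 lost its call without any of 7 further libraries (adjusted p up to 0.131), Dnajc4 and Dnajc12 without EV+IL-2 replicate 3 (adjusted p = 0.0574 and 0.0765), Dnajc12 without 3A10t replicate 2 (0.0928), Dnajc4 and Dnajc28 without 3A10t replicate 3 (0.0569 and 0.0554), and Dnajc28 without EV+IL-2 replicate 2 (0.0782) or 3 (0.0636). Dnajc28 was lost also for TPM as deposited (0.0768) and under quantile normalization (0.103), and with the 6 libraries alone Dnajc4 (0.111), Dnajc9 (0.119) and Dnajc12 (0.073) were lost. Dnajc19, a subunit of the mitochondrial import motor, passed with the replicate block (log2 fold change 0.43, adjusted p = 0.0391) and not without it (adjusted p = 0.0584, both limma). In the same comparison all 10 proliferation genes fell, Il2ra fell by 0.88 and Foxp3 by 0.31 on the log2 scale, and the part of these in the chaperone levels was not tested.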

How the data were processed

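RNA of 12 Treg libraries, 3 in each of 4 groups, was analysed as deposited by the authors in 1 table of TPM for 55228 symbols. Per the labels and the methods, the authors trimmed reads with Cutadapt 1.18, aligned them to mm10 with STAR 2.5.3, and estimated expression with RSEM 1.3.0 and a GENCODE annotation, so the deposited TPM were already divided by transcript length and library total. They keep no depth, and no counting interval can be given. DESeq2 1.26, which the authors used on counts, was not used here.

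TPM were divided by median-of-ratios factors (0.854 to 1.09 per library). Genes with a mean of at least 1 TPM, 15043 in all, were tested with limma 3.58.1 (R 4.3.3; lmFit, then eBayes with its trend option) on the log2 of scaled TPM plus a pseudocount of 1, with all 12 libraries, 1 mean per group and no block. A gene was called at a Benjamini-Hochberg adjusted p under 0.05. Fold changes on this scale understate those of low genes. The procedure was run on simulated data with the same spread in every group, which cannot show how it behaves with the wider spread of 3A10t. Python 3.11.15 and matplotlib 3.10.9 drew the figures. Gene positions came from GENCODE M21 on GRCm38, which held 84 of the 85 members, and promoters from RefSeq (GRCm38.p6). Strand was not given in the sources used here, so reads of overlapping genes cannot be told apart.

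The replicate number marks a shared sort and activation in the labels. Deviations from the group means correlated at 0.04 on average (-0.11 to 0.15) in the 18 same-numbered pairs of libraries and at -0.02 in the 36 other pairs between groups. Values with the number as a block stand beside a member's result where they change its call, and beside the list counts that they change.

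The members, lists and tests were chosen with earlier results of these data known. Named were a list of 44 core members, other members that were called (at most 5 in each direction), Foxp3, Il2ra, Myc, Hsf1 and Hsf2, and at most 4 called examples per list, except where stated. A member and a marker gene that enter the counts are not reported by name here. In the main fit, members' counts are read against the share of all genes tested, and no set test was run. Counts under the alternatives show how far the members' number moved, and most are given without that share. Alternatives were other pseudocounts (0.1 and 5), filters, scalings, the 6 libraries alone, the block, a length correction (lowess of each library's deviations on transcript length, span 0.3) alone and under the block, and each library omitted in turn. The length was the median over all annotated transcripts of a symbol, such as 599 bases for Hsp90aa1. It need not be that of the transcript expressed, so this correction cannot show how far length matters for a single gene.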

Additional observations from a re-analysis of the deposited data

How the results depend on the processing

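With the replicate block, 6 members were called in EV+IL-2 against EV no IL-2, 0 in either tether against EV no IL-2, 5 in 3A10t against 1G12t and 10 in 3A10t against EV+IL-2. Of all 15043 genes, the block gave 1245 rises and 729 falls in EV+IL-2 against EV no IL-2. Against EV no IL-2 these were 91 and 311 in 3A10t, and 2 and 1 in 1G12t. In 3A10t they were 348 and 639 against 1G12t, and 1633 and 2085 against EV+IL-2. Apart from Dnajc28, Dnajc7, Cct7 and Dnajc19, given above, the block changed no call among the fold changes of members reported. Of the 987 values of these fold changes under the 22 alternatives, 986 kept their sign. The exception was Hsp90ab1 in EV+IL-2, not called, at -0.0708 with quantile normalization; 134 values lost a call and 50 gained one.

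In EV+IL-2 against EV no IL-2 (7 called), 3 members were called with no filter on low TPM and 15 with the 6 libraries alone; leaving out 1 library gave 2 to 14. In 3A10t against EV no IL-2 (1 called), the count was 0 with no filter, quantile normalization, the 6 libraries or the length correction with the block, 2 at a mean TPM of at least 5, 3 with TPM as deposited and 8 at the unadjusted threshold; leaving out 1 library gave 0 to 20. In 3A10t against 1G12t (3 called), it was 0 with no filter, the 6 libraries or the length correction, 10 at a mean TPM of at least 5, 7 with TPM as deposited (1 up and 6 down), 1 with quantile normalization, 5 with the length correction and block and 10 at the unadjusted threshold; leaving out 1 library gave 0 to 26. In 3A10t against EV+IL-2 (9 called), it was 20 with no filter and 3 with the 6 libraries, and 2 to 26 with 1 library left out. No setting moved the count of 0 in 1G12t. With TPM as deposited, 96 of all 15043 genes rose and 1300 fell in 3A10t against 1G12t. In 3A10t against EV no IL-2, 53 rose and 446 fell with that setting. Quantile normalization gave 187 rises and 293 falls over all genes in 3A10t against 1G12t. Shares of all genes under the other settings of this paragraph are not given here, so its counts show only how far the members' number moved. The highest counts without 1 library were those without 3A10t replicate 1.

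Medians of the members moved as follows, all by under 0.2. In EV+IL-2 the median was -0.0663 with no filter, 0.0525 at a mean TPM of at least 5, -0.0681 for TPM as deposited and -0.0656 under quantile normalization. In 3A10t against EV no IL-2 it was 0.0736 with no filter, -0.126 with TPM as deposited and 0.0572 with the length correction, with or without the block. In 1G12t it was -0.0436 with TPM as deposited. In 3A10t against 1G12t it was -0.119 with TPM as deposited, and 0.00408 to 0.0812 without 1 library. In 3A10t against EV+IL-2 it was 0.0671 with no filter, -0.101 at a mean TPM of at least 5, -0.146 with TPM as deposited, 0.00726 with quantile normalization and -0.0174 with the length correction, with or without the block, and -0.0862 to -0.0118 without 1 library. The cause of these moves was not tested. TPM as deposited shifted the median of all genes in 3A10t against EV no IL-2 from 0.03 to -0.09.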
